A study of Homo sapiens with 46 samples.

Results

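CYTB silencing was compared with the mean of the 10 other silencing treatments in the RNA-seq data of HEK293T cells, a human embryonic kidney line described in the records as wild type and epithelial-like. The comparison set 4 CYTB libraries against 38 libraries of the other treatments, of 46 libraries in all. Each treatment delivered 1 chimera, a morpholino (an antisense oligomer that binds RNA) joined to pCox4, a presequence that carries it into mitochondria. The chimeras were added at 2 µM with the carrier EndoPorter, and cells were collected after 48 hours. The other treatments were ATP6, ATP8, COX1, COX3, ND1, ND3, ND4L and ND5 (4 libraries each), and COX2 and ND2 (3 libraries each). The 4 control libraries, from cells that received pCox4 without a morpholino, did not enter the contrast and are given beside it. All 46 samples were thus exposed to pCox4 and to EndoPorter, and all came from 1 cell line. Nothing in the records ties same-numbered libraries to separate cell stocks, so the p-values measure the spread between these cultures.

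CYTB is the mitochondrial gene of cytochrome b, the only subunit of respiratory complex III that is encoded in mitochondrial DNA (mtDNA). Complex III takes electrons from ubiquinol, passes them to cytochrome c and pumps protons across the inner membrane, and the remaining subunits are made from nuclear genes. Both strands of mtDNA are transcribed into long RNAs, from which tRNAs that lie between the reading frames are excised, so that mRNAs and tRNAs are released together.

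MT-CYB has no introns. On the opposite strand, 4 bases from the MT-CYB start codon, MT-TE, the gene of tRNA-Glu, begins and runs away from MT-CYB (chrM:14674-14742, GRCh38). Its sequence is given 5′ to 3′ on its own strand because its reads carried the widest difference in the comparison.
MT-TE, whole gene of 69 bases: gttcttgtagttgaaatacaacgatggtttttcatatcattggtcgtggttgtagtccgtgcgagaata

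The CYTB libraries held 19598334 to 26600761 counted reads (median 24180229), and the other 38 held 18876395 to 100698084 (median 23519146). The deepest was COX3 replicate 4, and no other library exceeded 28121898. Genes of mtDNA took 4.12% to 5.28% of the counts after CYTB silencing, 3.80% to 5.34% in the other treatments and 4.12% to 4.96% in the control. All 10 genes of a HEK293 and epithelial-like marker list were detected, with a summed level of 1332 to 1531 CPM (read counts relative to library size, scaled by the TMM method) in the CYTB libraries and 1305 to 1601 CPM in the other treatments. Of 10 markers of blood cells, hepatocytes and fibroblasts, 2 exceeded 1 CPM in any library. Their summed level was 4.54 to 8.5 CPM after CYTB silencing and 4.72 to 7.98 CPM in the other treatments. No pair of replicates agreed within counting noise, so each library was kept as a sample.

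CYTB silencing differed from the mean of the other treatments in few transcripts. At a Benjamini-Hochberg adjusted p under 0.05 in edgeR's quasi-likelihood test, 12 of 20272 genes passed, 0.0592% of those tested, with 7 higher and 5 lower. These were 5 genes of mtDNA (MT-TE, MT-CYB, MT-ND2, MT-CO1 and MT-RNR1), 2 nuclear copies of mtDNA genes (MTND2P28 and MTCO1P12), 4 other protein-coding genes (CEP152, ZNF467, MYLK2 and ADRA2C) and 1 long noncoding RNA (AP003392.5). Most genes lay close to the other treatments: the median log2 difference was 0.00, the median absolute difference was 0.0652, and 50.2% of genes had a difference above 0. At an unadjusted p under 0.05, 1471 genes passed (7.26%), 861 higher (4.25%) and 610 lower (3.01%). Against the control, 111 genes passed after CYTB silencing (0.548%), and 26 passed for the mean of the other 10 treatments (0.128%). These counts are not alike, because a change found after 1 treatment alone carries little weight in a mean of 10. They do not rank CYTB silencing against any single treatment.

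The widest difference was that of MT-TE, whose tRNA delivers glutamate to the mitochondrial ribosome. It stood at 23.4, 25.3, 21.7 and 13.7 CPM in CYTB replicates 1 to 4. The 38 libraries of the other treatments ranged from 1.28 CPM (ND4L replicate 4) through a median of 2.00 to 4.15 CPM (COX3 replicate 3), and the control libraries held 1.95, 1.90, 2.77 and 1.61 CPM. Each CYTB library therefore lay above each of the 42 others, and no other gene tested had its CYTB libraries above all 38 libraries of the other treatments (1 gene of 20272, 0.00493%). The difference was 3.33 on the log2 scale (SE 0.11, adjusted p = 4.81e-31, edgeR quasi-likelihood test), a 10.1-fold higher level. In reads, the 4 CYTB libraries together held 1987 reads on MT-TE, 330 to 619 per library, and the 38 others 2078, 28 to 200 per library.

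MT-TE also stood apart in each comparison with a single treatment. The log2 difference was lowest against COX3 silencing (2.78, SE 0.18) and highest against ATP6 silencing (3.76, SE 0.20), and all 10 passed at an adjusted p under 0.05 (edgeR quasi-likelihood test). Against the control it was 3.35 (adjusted p = 1.45e-18), whereas the mean of the other treatments differed from the control by 0.02 (adjusted p = 0.981). It was 3.55 within batch 1 (replicates 1 and 2) and 3.08 within batch 2 (replicates 3 and 4), past the threshold in both. Of its neighbours on mtDNA, MT-CYB passed in the other direction and MT-ND6 did not pass. MT-ND6, a complex I subunit gene on the same strand that begins where MT-TE ends, was at 610, 620, 684 and 598 CPM after CYTB silencing, and the other treatments held 325 to 818 CPM (median 580). Its difference was 0.14 (SE 0.051, adjusted p = 0.515). Of the 22 tRNA genes of mtDNA, 19 had enough reads to be tested and 1, MT-TE, passed, and the other 18 had differences of -0.84 (MT-TQ) to 0.43 (MT-TA). The libraries were enriched for poly(A) tails, and the use of strand in counting is not given in the sources used here, so reads from either strand of these 69 bases cannot be told apart.

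The targeted mRNA itself, MT-CYB, was lower. It was measured at 1550, 1649, 2105 and 2416 CPM in CYTB replicates 1 to 4, and at 1817 CPM (ND2 replicate 1) to 3463 CPM (COX1 replicate 4) in the other treatments, with a median of 2552. Pooled over the batches, 14 of the 38 libraries lay within the range of the CYTB libraries, but within each batch the groups did not overlap. In batch 1 the CYTB libraries reached at most 1649 CPM and the lowest of 18 others was 1817 CPM, and in batch 2 they reached at most 2416 CPM and the lowest of 20 others was 2484 CPM. Of the genes tested, 3 (0.0148%) lay below all other treatments within both batches, MT-CYB, MT-ND2 and LMTK2, a kinase gene singled out after its values were seen and not past the threshold (log2 difference -0.15, adjusted p = 0.179). The MT-CYB difference was -0.39 (SE 0.047, adjusted p = 3.62e-07, edgeR quasi-likelihood test), 76.4% of the mean of the other treatments.

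Treatment by treatment, MT-CYB was lower after CYTB silencing than after each of the others, and 9 of the 10 differences passed. They ran from -0.56 against COX1 silencing (SE 0.061, adjusted p = 7.91e-09) to -0.19 against ND2 silencing (SE 0.066, adjusted p = 0.597, edgeR), the exception. Against the control (2136, 2120, 2558 and 2799 CPM) the difference was -0.33 (adjusted p = 0.00449), and the mean of the other treatments was at 0.06 (adjusted p = 0.648). Without a batch term the log2 difference was the same, -0.39, but did not pass (adjusted p = 0.833), and within batch 2 alone it was -0.30 (adjusted p = 0.234).

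**Figure D1:**
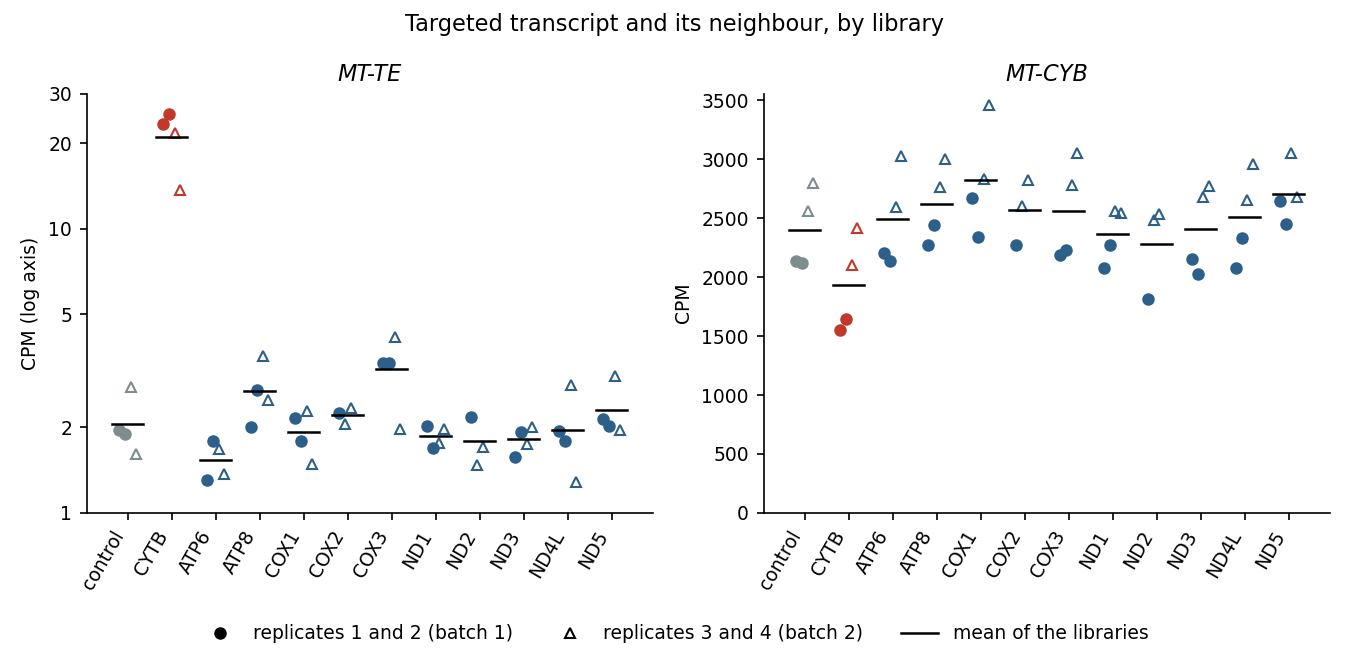
CPM of MT-TE (left, log axis) and MT-CYB (right, linear axis from 0) in each library, by condition. Circles are replicates 1 and 2 (batch 1), triangles are replicates 3 and 4 (batch 2) and bars are means; for MT-TE the 4 CYTB libraries (13.7 to 25.3 CPM) lie above all others, and for MT-CYB they are the lowest of the silencing treatments within each batch.

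Among the 13 mRNAs of mtDNA, 3 passed, MT-CYB and MT-ND2 lower and MT-CO1 higher. MT-ND2, a complex I subunit, was at 1712, 1847, 2070 and 2071 CPM after CYTB silencing, and the other treatments ranged from 1951 CPM (ATP6 replicate 2) through a median of 2402 to 5409 CPM (ND2 replicate 3). The groups did not overlap within either batch. The difference was -0.40 (SE 0.048, adjusted p = 2.14e-07, edgeR). The highest treatment was ND2 silencing itself, at 4744 ± 738 CPM (SD, n = 3). Of the 10 single comparisons 4 passed, those with COX3, ND1 (3108 ± 281 CPM, SD, n = 4), ND2 and ND3 silencing. With the other treatments as 1 group the difference was -0.42 and did not pass (adjusted p = 0.634). Without the ND2 treatment the difference was -0.30 and still passed, and against the control it was -0.24 (adjusted p = 0.0512).

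MT-CO1, the catalytic subunit of complex IV, was at 12183, 11561, 14393 and 14584 CPM, against 3961 CPM (COX1 replicate 2) to 14460 CPM (ND5 replicate 3) in the other treatments, with a median of 11844. Here 24 of the 38 libraries lay within the CYTB range. The difference of 0.29 (SE 0.049, adjusted p = 6.39e-04, edgeR) included COX1 silencing, at 4774 ± 701 CPM (SD, n = 4), and without that treatment it was 0.16 and did not pass (adjusted p = 0.23). It did not pass without CYTB replicate 4 either (0.25, adjusted p = 0.0855), nor with the other treatments as 1 group (0.25, adjusted p = 0.81, edgeR). In batch 1 alone the MT-CO1 difference was 0.18. Of the 10 single comparisons 2 passed, those with COX1 and ND1 silencing.

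In this contrast the nuclear copies differed in the same direction as their mtDNA counterparts. MTND2P28 (chr1:629640-630683) was at 90.5, 97.3, 103 and 105 CPM against 86.7 to 262 CPM (median 125), a log2 difference of -0.37 (SE 0.056, adjusted p = 1.01e-04, edgeR). MTCO1P12 (chr1:631074-632616) was at 43.0, 40.8, 45.0 and 49.5 CPM against 12 to 56.2 CPM (median 33.9), a difference of 0.50 (SE 0.087, adjusted p = 0.00137, edgeR). In the GENCODE transcripts 43.5% of all runs of 50 bases of MTND2P28 are identical in MT-ND2, and 49.4% of those of MTCO1P12 in MT-CO1, so their reads are uncertain. Against the control MTND2P28 was at -0.06 after CYTB silencing (adjusted p = 0.755) and at 0.30 for the mean of the other treatments (adjusted p = 0.00649), whereas MTCO1P12 was at 0.75 after CYTB silencing (adjusted p = 5.14e-04, edgeR) and MT-CO1 at 0.13 (adjusted p = 0.387). Without the COX1 treatment the MTCO1P12 difference was 0.38 (adjusted p = 0.0985), and without CYTB replicate 4 it was 0.48 (adjusted p = 0.0519). MTCO1P12 also did not pass without a batch term, with the other treatments as 1 group or in batch 2 alone (adjusted p = 0.176, 0.653 and 0.427, edgeR). MTND2P28 did not pass in the first 2 of these fits (adjusted p = 0.233 and 0.645, edgeR). Each passed in 3 of 10 single comparisons, MTND2P28 with COX3, ND1 and ND2 and MTCO1P12 with COX1, ND1 and ND2.

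Of the 2 rRNAs of mtDNA, MT-RNR1 passed. It was at 710, 655, 609 and 657 CPM after CYTB silencing, 515 to 1276 CPM (median 771) in the other treatments and 607 to 680 CPM in the control. Its difference was -0.23 (SE 0.047, adjusted p = 0.014, edgeR), whereas CYTB silencing differed from the control by 0.01 and the mean of the other treatments by 0.24 (adjusted p = 0.012). The call was lost without the ATP6, ATP8 or COX2 treatment and without CYTB replicate 1, 2 or 3, with values of -0.24 to -0.18 in these fits. It was also lost without a batch term, with the other treatments as 1 group and in batch 2 alone (adjusted p = 0.844, 0.725 and 0.75, edgeR). In batch 1 alone the MT-RNR1 difference was -0.25. Of the 10 single comparisons 4 passed (ATP6, ATP8, COX2 and COX3). MT-RNR1 was higher than after ND2 silencing (0.26) and ND3 silencing (0.03), neither past the threshold. MT-RNR2 did not pass (-0.04, adjusted p = 0.879). The remaining mRNAs did not pass: MT-ND1 had a difference of -0.20 (adjusted p = 0.185), MT-ND3 of -0.01, and MT-ND5, MT-ND4L, MT-ND4, MT-CO2, MT-ATP8, MT-ATP6, MT-CO3 and MT-ND6 lay between 0.04 and 0.14. In total 5 of 34 mtDNA genes tested passed.

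**Figure D2:**
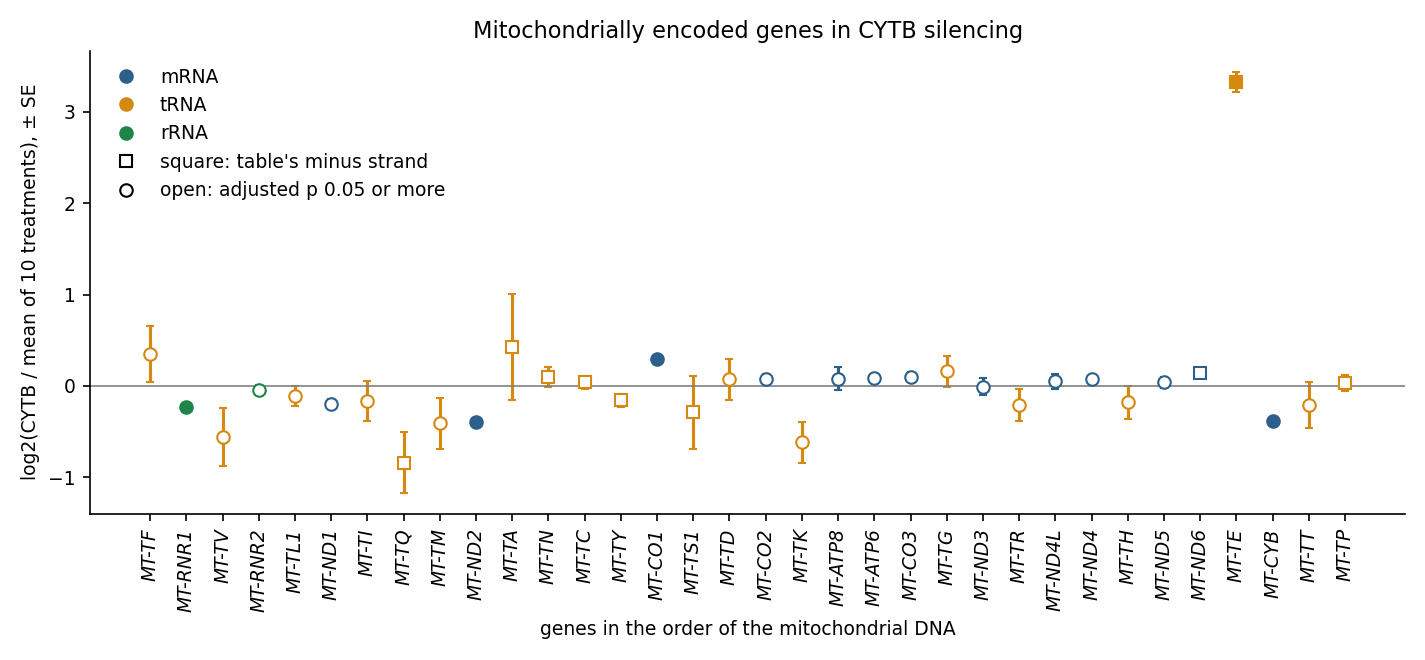
Log2 difference between CYTB silencing and the mean of the 10 other treatments for the 34 mtDNA genes tested, in the order of mtDNA, with the SE as bars. Colours give the kind of gene, squares the minus strand and filled symbols an adjusted p under 0.05; MT-TE is at 3.33 beside MT-CYB at -0.39, and the other genes lie between -0.84 and 0.43.

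Among nuclear genes without an mtDNA counterpart, CEP152, a centrosomal protein needed for centriole duplication, had the lowest adjusted p. It was at 31.7, 33.0, 35.1 and 35.6 CPM after CYTB silencing, and the other treatments ranged from 20.8 CPM (COX2 replicate 2) through a median of 27.3 to 32.1 CPM (ND5 replicate 4). A single library of the 38, ND5 replicate 4, fell within the CYTB range, and within each batch the groups did not overlap. Genes above all other treatments within both batches numbered 3 (0.0148% of those tested), CEP152, MYLK2 and MT-TE. The difference was 0.31 (SE 0.049, adjusted p = 2.73e-04, edgeR quasi-likelihood test), and 4 of the 10 single comparisons passed (ATP6, ATP8, COX1 and COX2). It passed in all 42 fits that left out a library, but not within batch 2 alone (0.32, adjusted p = 0.234). The control libraries held 29.8, 25.9, 30.7 and 29.9 CPM, and the difference from the control was 0.22 (adjusted p = 0.103).

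The other 3 protein-coding genes were less abundant and also higher. ZNF467, a zinc finger protein, was at 7.11, 7.45, 7.69 and 9.65 CPM against 4.25 to 8.17 CPM (median 5.72), a difference of 0.47 (SE 0.089, adjusted p = 0.00803, edgeR). MYLK2, the skeletal muscle myosin light chain kinase, was at 2.31, 1.88, 2.12 and 2.66 CPM against 0.472 to 2.11 CPM (median 1.2), a difference of 0.94 (SE 0.18, adjusted p = 0.0113). ADRA2C, an alpha-2 adrenergic receptor, was at 13.1, 12.8, 10.9 and 11.5 CPM against 6.71 to 12.3 CPM (median 9.00), a difference of 0.42 (SE 0.084, adjusted p = 0.0129). In each of these genes CYTB silencing had the highest mean of the 11 treatments, and 1 (ZNF467, ADRA2C) or 2 (MYLK2) of the 38 libraries fell within the CYTB range. Of the 10 single comparisons, 2 passed for ZNF467 (COX3 and ND1), 1 for MYLK2 (ND5) and 0 for ADRA2C. None of the 3 passed against the control, with adjusted p of 0.0655, 0.0828 and 0.0655. The ZNF467 call was lost without CYTB replicate 2 or 4 (log2 difference 0.39 to 0.51 over all libraries left out). It was also lost in batch 1 alone and in batch 2 alone (adjusted p = 0.246 and 0.555, edgeR). Without a batch term and with the other treatments as 1 group ZNF467 did not pass either (adjusted p = 0.114 and 0.0821). The MYLK2 and ADRA2C calls were lost without CYTB replicate 1, 2 or 4 (0.88 to 1.02 and 0.39 to 0.46). MYLK2 did not pass in batch 1 alone, in batch 2 alone or without a batch term (adjusted p = 0.163, 0.69 and 0.128, edgeR). ADRA2C did not pass in batch 2 alone or without a batch term (adjusted p = 0.812 and 0.0739). In batch 2 the lowest CYTB library held 2.124 CPM of MYLK2 and the highest of the others 2.115 CPM, on 42 to 64 reads per CYTB library over both batches.

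**Figure D3:**
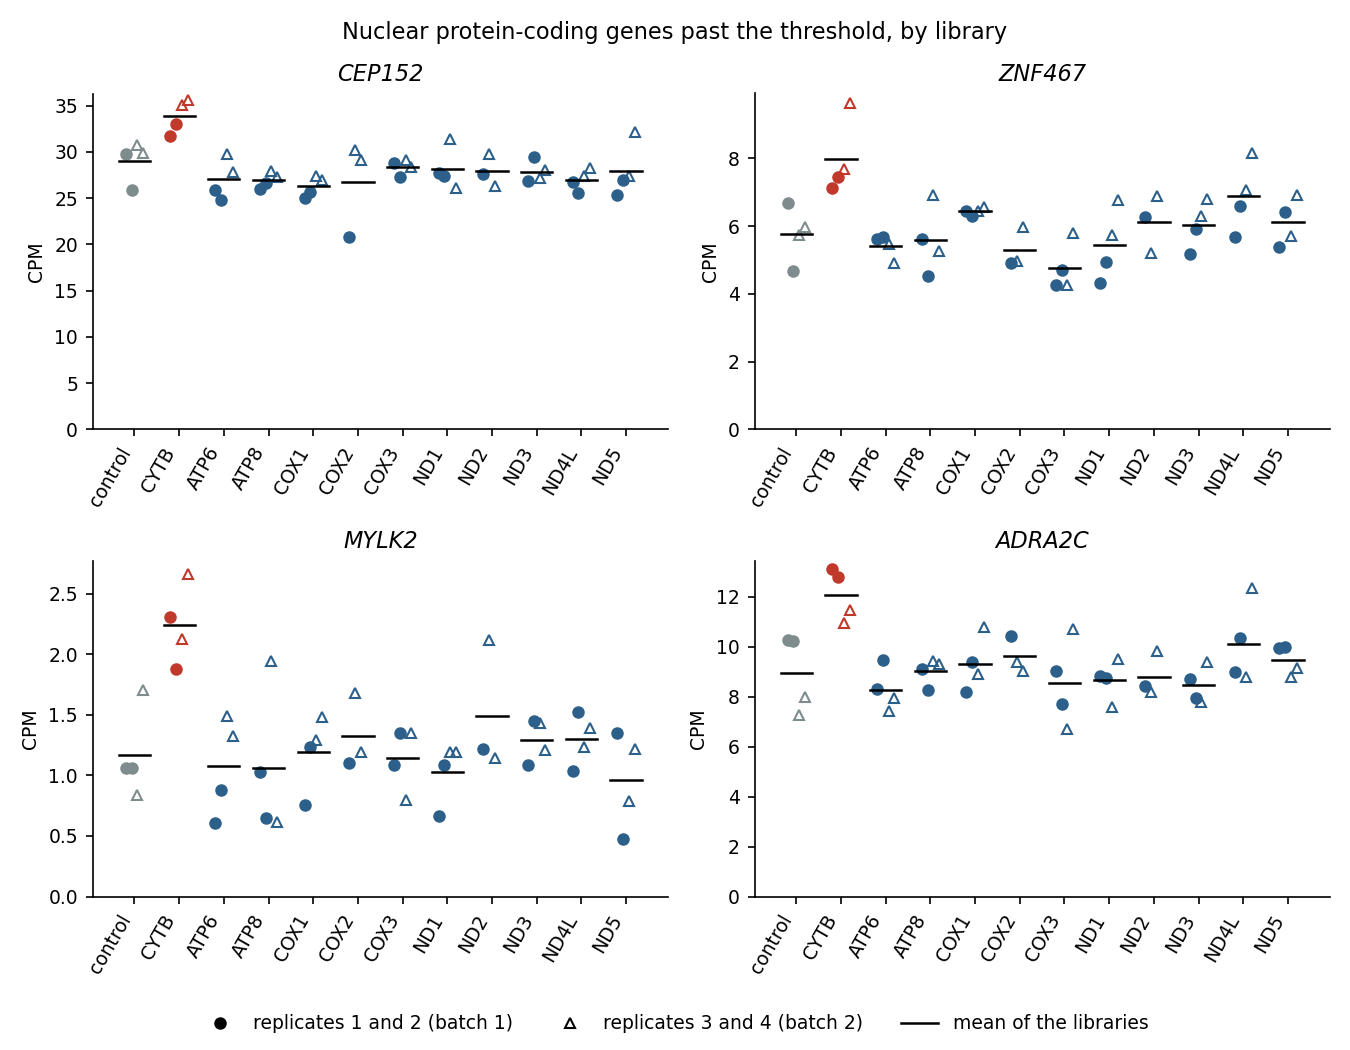
CPM of CEP152, ZNF467, MYLK2 and ADRA2C in each library (linear axes from 0), by condition. Circles are replicates 1 and 2, triangles are replicates 3 and 4 and bars are means. The CYTB mean is the highest in all 4 genes. In CEP152 and MYLK2 the CYTB libraries lie above the other treatments within each batch, for MYLK2 in batch 2 only by 2.124 against 2.115 CPM.

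The noncoding gene AP003392.5 (chr11:119065263-119065677) was lower, on few reads. Each CYTB library held 1 read, 4 in all, against 313 in the other 38 libraries. Relative to library size this was a ratio of 0.132 (95% exact interval 0.0358 to 0.342, counting error only), and the fitted difference was -2.79 (SE 0.56, adjusted p = 0.0129, edgeR). The call was lost without any 1 of the CYTB libraries (differences of -2.89 to -2.68) and with DESeq2 (adjusted p = 0.121).

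The next protein-coding genes by p did not pass. EML2, a microtubule-associated protein, was at 33.2, 34.0, 39.7 and 47.5 CPM, against 26.2 to 43.8 CPM (median 32.4) in the other treatments and 25.2 to 27.7 CPM in the control. Its difference was 0.24 (SE 0.052, adjusted p = 0.0615). Against the control it was 0.53 for CYTB silencing (adjusted p = 1.32e-05) and 0.29 for the mean of the other treatments (adjusted p = 0.012, edgeR). It passed against the other treatments under 7 of 13 alternative settings, but in 0 of the 4 fits that left out a CYTB library. Over all libraries left out the EML2 difference was 0.17 to 0.27. SEMA6B, a transmembrane semaphorin, was at 20.4, 20.3, 19.5 and 20 CPM against 12.8 to 20.5 CPM, a difference of 0.26 (adjusted p = 0.135). INSM1 and NRTN, a neuroendocrine transcription factor and the growth factor neurturin, had differences of 0.61 and 0.56 (adjusted p = 0.104 and 0.107). MATK, a tyrosine kinase, and NT5M, the mitochondrial deoxynucleotidase, had differences of 0.37 and 0.41 (both adjusted p = 0.135). Of the same 13 settings INSM1 and NRTN passed under 3 each and MATK under 2. Of the 4 fits that left out a CYTB library, INSM1 and MATK passed in 0 and NRTN in 1. FOXJ3, a forkhead factor, was the 1 gene of this group below 0 (-0.15, adjusted p = 0.135), at 69.3, 73.7, 75.7 and 65.5 CPM against 71.7 to 84.7 CPM. BOLA2B had the largest difference of this group, 1.80 (adjusted p = 0.123), and its level was 2.73, 8.18, 2.43 and 25.5 CPM in the CYTB libraries and 0.698 to 39.5 CPM in the others. Without CYTB replicate 4 the difference was 0.27 (adjusted p = 0.979), and it was 0.51 within batch 1 and 2.71 within batch 2 (adjusted p = 8e-05, edgeR). Without ND3 replicate 1, its highest library, it was 1.95 and passed (adjusted p = 0.00194). It has a near-identical copy, BOLA2, with which it could share reads.

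The nuclear partners of cytochrome b in complex III stayed near the level of the other treatments. Of 9 nuclear subunits, 8 had differences above 0 and 1 below, none passed, and the median was 0.03, beside 0.00 over all genes. UQCRFS1, the Rieske iron-sulfur protein, was at 285, 292, 272 and 274 CPM against 252 to 350 CPM (median 294), a difference of -0.08 (SE 0.038, unadjusted p = 0.0481, adjusted p = 0.687, edgeR). CYC1, cytochrome c1, was at 147, 135, 129 and 129 CPM against 108 to 141 CPM (median 127), a difference of 0.09 (adjusted p = 0.704). The core proteins UQCRC1 and UQCRC2 had differences of 0.03 and 0.00, UQCRH, UQCRB and UQCRQ of 0.07, 0.12 and 0.10, and UQCR10 and UQCR11 of 0.01 each. UQCRH, UQCRB and UQCRQ were highest in CYTB replicate 1 (422, 121 and 189 CPM), and the other CYTB libraries held 302 to 324, 85.1 to 90.8 and 130 to 138 CPM. Of 10 assembly factors, 6 had differences above 0 and none passed (median 0.02). BCS1L, which inserts the Rieske protein, was at 0.00 (SE 0.043), TTC19 at 0.06, and UQCC1, UQCC2 and UQCC3 at 0.07, 0.05 and -0.01. LYRM7, C12orf73 and C16orf91 were at 0.02, 0.06 and 0.01, and HCCS and SMIM4 at -0.02 and -0.03.

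CYTB replicate 1 also stood above the other CYTB libraries in the remaining respiratory complexes. Against the other treatments of its batch, the median over nuclear subunits was 0.13 for complex I (37 genes), 0.27 for complex IV (11 genes) and 0.15 for complex V (18 genes) in CYTB replicate 1, and it lay between -0.07 and 0.00 in the other CYTB libraries. Over all CYTB libraries these medians were 0.04, 0.03 and 0.03, and no member passed. By p, NDUFV3 (0.10) and NDUFB7 (0.11) led complex I, COX7C (0.17) and COX5B (0.09) complex IV, and ATP5ME (0.17) and ATP5F1E (0.13) complex V. COX7C was at 382 CPM in CYTB replicate 1 and at 248 to 255 CPM in the other CYTB libraries, with 204 to 334 CPM in the other treatments. The cytosolic ribosomal protein genes also varied among the CYTB libraries. Of 78 genes 70 had differences above 0, none passed, the median was 0.06, and the libraries stood at 0.17, -0.02, -0.05 and 0.07. RPL8 and RPL7 had the lowest p (0.12 and 0.13, adjusted p = 0.621 and 0.669, edgeR).

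No nuclear gene on any of the 28 lists passed. The ATF4 list of the integrated stress response, which is known to react to mitochondrial dysfunction, had 32 of 42 genes above 0 and a median of 0.05, with 0.06, 0.04, 0.04 and 0.03 in the 4 CYTB libraries. At an unadjusted p under 0.05, 9 of its genes were higher and 1 lower, where 4.25% of all genes were higher and 3.01% lower. ALDH1L2, a mitochondrial folate enzyme, was at 5.0, 5.97, 8.80 and 8.73 CPM against 3.91 to 9.31 CPM, a difference of 0.35 (SE 0.098, adjusted p = 0.288, edgeR). PYCR1, a proline synthesis enzyme, was at 23.0, 20.6, 26.9 and 38 CPM against 13.7 to 35.9 CPM, a difference of 0.33 (SE 0.092, adjusted p = 0.288).

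Immediate early genes and feedback genes of ERK signalling lay on the other side. Of 22 genes 17 had differences below 0 and none passed. The median was -0.08, with -0.09, -0.02, -0.03 and -0.21 in CYTB replicates 1 to 4, so it was widest in replicate 4. At an unadjusted p under 0.05, 1 was higher and 6 lower, where 4.25% of all genes were higher and 3.01% lower. The transcription factor EGR1 was at 28.8, 29.3, 33.7 and 28.4 CPM, against 22.3 to 49.7 CPM (median 36.4) in the other treatments. The difference was -0.27 (SE 0.074, adjusted p = 0.288, edgeR), and 26 of the 38 libraries lay above all CYTB libraries. Without the ND5 treatment it was -0.31 and passed (adjusted p = 0.0423). FOS was at 8.54, 7.86, 3.19 and 2.99 CPM against 2.73 to 12.2 CPM, a difference of -0.41 (SE 0.13, adjusted p = 0.392). Its level differed between the batches, and the CYTB libraries followed that split.

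The lists of pathways that depend on complex III or its substrates had medians near 0. The ubiquinone-linked dehydrogenases had a median of 0.00 (14 genes), ubiquinone synthesis -0.01 (13 genes) and pyrimidine synthesis and salvage -0.03 (14 genes). The dehydrogenase list was led by SDHC, a complex II subunit (-0.06, adjusted p = 0.721), and SQOR, the sulfide oxidizing enzyme (0.17, adjusted p = 0.742). In the ubiquinone list COQ2 was at 0.11 (adjusted p = 0.644) and COQ7 at -0.08 (0.732). RRM1, the large subunit of ribonucleotide reductase, was at 237, 250, 220 and 211 CPM against 207 to 287 CPM, a difference of -0.11 (SE 0.033, adjusted p = 0.366, edgeR), and CTPS1 at -0.07 (0.684). Heme and iron-sulfur cluster genes had a median of 0.01, with TFRC, the transferrin receptor, at -0.08 (unadjusted p = 0.0241) and SLC25A38 at -0.06 (0.776). The cytochrome c and supercomplex list had a median of -0.03 over 4 genes, with HIGD2A at -0.05 (0.86) and COX7A2L at -0.04 (0.917).

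Lists of metabolism and stress were equally close. Glycolysis had a median of 0.01 (SLC2A1 at -0.09, adjusted p = 0.661, and PFKL at 0.08, 0.705) and hypoxia targets 0.01 (MXI1 at 0.11, 0.638). NRF2 targets had a median of 0.02 (ABCC2 at -0.21, 0.708, and SRXN1 at 0.14, 0.785), and p53 targets 0.00 (BTG2 at 0.07, 0.668, and TNFRSF10B at -0.06, 0.736). Cholesterol genes had a median of 0.05, with 19 of 25 above 0. INSIG1, a sterol-regulated inhibitor of SREBP processing, was at 0.16 (adjusted p = 0.38), and TM7SF2 at 0.16 (0.639). MondoA-ChREBP targets had a median of -0.02 over 6 genes. Among them TXNIP, a glucose-responsive arrestin, was at 20.7, 19.6, 25.5 and 28.6 CPM, against 18.4 to 35.4 CPM (median 26.5) in the other treatments and 33.1 to 46.2 CPM in the control. The difference was -0.20 (SE 0.060, adjusted p = 0.366, edgeR), and that of MLXIPL, ChREBP itself, 0.14 (0.705). Against the control TXNIP was -0.73 after CYTB silencing (adjusted p = 1.18e-08) and -0.53 for the mean of the other treatments (adjusted p = 8.11e-09, edgeR), comparisons that share the control libraries.

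The mitochondrial gene expression list, 39 genes tested, had a median of 0.00, with the polymerase subunit POLG2 at 0.13 (adjusted p = 0.514) and the elongation factor TSFM at -0.10 (0.661). Mitochondrial chaperones and import genes had a median of 0.01 (TRAP1 at 0.07, 0.709, and TIMM17B at 0.09, 0.781), and mitochondrial ribosomal proteins 0.02 (MRPL36 and AURKAIP1 both at 0.12, 0.632 and 0.635). The interferon and RNA sensing list had a median of 0.02, with its leading genes below 0: OAS3 was at 40.9, 39.2, 41.0 and 40.4 CPM, under 35 of the 38 other libraries (difference -0.14, SE 0.045, adjusted p = 0.38), and ISG20 at -0.28 (0.504). The proteasome list had a median of -0.02 (PSMD1 at -0.06, 0.726, and PSMB3 at -0.08, 0.741), and the cold-inducible pair RBM3 and CIRBP stood at -0.13 (0.646) and 0.03 (0.921). Of the marker lists, LIN28B (-0.09, 0.642) and NEFL (0.07, 0.705) led that of HEK293 cells, and ALB (-1.26, 0.674) and DCN (-0.31, 0.904), both under 1 CPM in every library, that of other cell types.

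**Figure D4:**
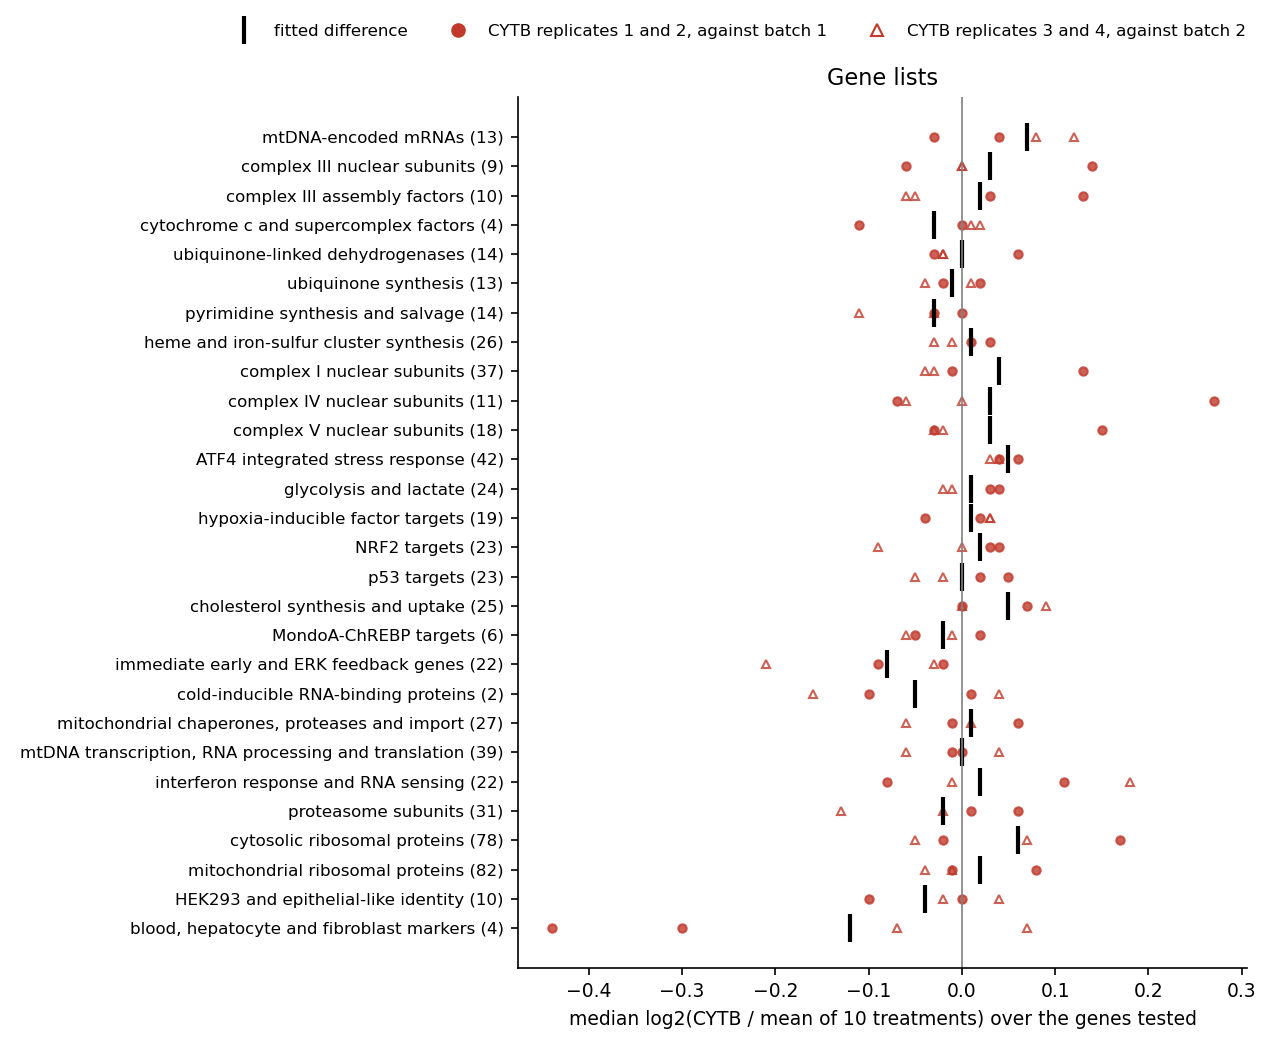
Median log2 difference between CYTB silencing and the mean of the 10 other treatments for each gene list (number of genes tested in parentheses). Black bars are the fitted differences and red symbols the 4 CYTB libraries against the other treatments of their batch; apart from the 4 markers of other cell types (-0.12) the medians lie between -0.08 and 0.07, and CYTB replicate 1 stands apart in the respiratory complex lists.

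Taken one treatment at a time, CYTB silencing differed in 3 to 34 genes, but the order of the treatments depended on the libraries and the filter. The comparison with ND4L gave 3 genes (0.0148%), COX2 gave 4 (0.0197%), ATP8 5 (0.0247%), ATP6 6 (0.0296%), ND2 and ND3 7 each (0.0345%), COX1 8 (0.0395%), COX3 16 (0.0789%), ND1 33 (0.163%) and ND5 34 (0.168%). These counts share the CYTB libraries, and COX2 and ND2 have 3 libraries each. Together 84 genes passed in at least 1 comparison, 70 of them in 1 alone. In several comparisons the list included the gene that the other chimera targeted or its neighbour: MT-ATP6 was 0.26 higher than after ATP6 silencing, MT-CO3 0.51 higher than after COX3 silencing and MT-ND4 0.30 higher than after ND4L silencing. For MT-ND1 the difference from ND1 silencing was -0.85 (SE 0.068). MT-ND6 was 0.63 higher than after ND5 silencing (628 against 407 CPM, SE 0.070, adjusted p = 3.30e-08, edgeR). Neighbouring tRNA genes also passed. MT-TY lies 12 bases from MT-CO1 on the opposite strand. It was at 14.5 CPM against 58.1 CPM after COX1 silencing (-2, adjusted p = 1.34e-23, edgeR), and at 12.6 CPM in the control. MT-TC and MT-TN, on the same strand as MT-TY, were at -1.25 and -0.97. MT-TL1, 2 bases before MT-ND1 on its strand, was 1.66 higher than after ND1 silencing. Counts on MT-TY were thus higher after COX1 silencing than after CYTB silencing. Reads from either strand of these tRNA genes cannot be told apart, and the genes were named after their values were seen.

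Among these, the comparisons with ND1 and ND5 silencing held the most genes. Against ND1 silencing 23 genes were higher and 10 lower, among them COL7A1 at 0.65 (12.3 against 7.94 CPM, adjusted p = 0.0245), MRC2 at 0.56 (adjusted p = 0.00537), LTBP3 at 0.30 (0.0277) and LAMB2 at 0.30 (0.0316), genes of the extracellular matrix or its turnover named after their values were seen. Against ND5 silencing 13 were higher and 21 lower. PHYH, the peroxisomal phytanoyl-CoA hydroxylase, was at 26.7 CPM after CYTB silencing, 13.1 CPM after ND5 silencing and 23.7 CPM in the control, a difference of 1.03 (SE 0.091, adjusted p = 1.18e-11, edgeR). LAMC1, a laminin chain, and ITGAV, an integrin, were at -0.20 (0.0388) and -0.26 (0.0382). PHYH, LAMC1 and ITGAV were also named after their values were seen. The counts moved with single CYTB libraries: without 1 of them the comparison with ND1 gave 13 (without replicate 4) to 41 genes, that with ND5 14 (without replicate 4) to 22, and that with ND3 1 to 2. In batch 1 alone ND3 gave 153 genes, ND1 7 and ND5 12, and in batch 2 alone they gave 1, 11 and 4. Without the filter on low counts ND3 gave 133, ND1 161 and ND5 111.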

How the data were processed

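RNA of HEK293T cells was enriched for poly(A) and sequenced; the study's methods describe paired-end reads and the sample records single-end reads. The authors deposited unnormalized read counts for 58735 genes and 46 libraries, on GRCh38 per their processing notes, which also name R 4.3.0, DESeq2 1.40.2 and limma 3.56.2. Aligner, counter and use of strand are not given in the sources used here.

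Groups came from the sample titles, and batch (replicates 1 and 2, or 3 and 4) from the study's methods. The counts of all 46 libraries were fitted with condition and batch in edgeR 4.0.16 (R 4.3.3): TMM scaling, filterByExpr with a minimum count of 10 (20272 genes kept), the quasi-likelihood test and Benjamini-Hochberg adjustment over all genes tested. The contrast was CYTB minus the equally weighted mean of 10 treatments. Depth was 18876395 to 100698084 counts per library; intervals on read ratios cover counting error only. The MT-TE sequence came from GENCODE transcripts, whose MT-TE position matches the table; the chimera's target site is not reported here. The fit was also run on counts simulated without a batch effect, so that run does not test its handling of batch. The genes named are the mtDNA mRNAs, all genes past the threshold, the next protein-coding genes by p (20 in all, mean of at least 1 CPM), nuclear complex III genes and the 2 lowest p of each list. The members and 28 gene lists were chosen with earlier results of these data known; FASTKD4 and PRORP, 2 list genes, were not matched by name. Alternatives were other scalings and filters, DESeq2 1.42.0, other batch terms, single batches, and leaving out libraries or treatments; library sizes before the filter were added after seeing the data.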

Additional observations from a re-analysis of the deposited data

Results flagged for a closer look

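Dixon's rule for a sample far from the others was applied to the CYTB and control libraries of 49 named genes, 98 groups of 4. It marked 4 values; chance marks about 1 in 20 groups. In the CYTB libraries UQCRB reached 121 CPM in replicate 1 (85.1 to 90.8 CPM in the other 3) and UQCRQ 189 CPM in the same library (130 to 138 CPM), both nuclear complex III subunits. UQCR11, another, was lowest in CYTB replicate 4 at 38.2 CPM (41.6 to 41.9 CPM in the other 3). BOLA2B stood at 10.0 CPM in control replicate 2, against 1.14 to 2.17 CPM in the other control libraries.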

How the results depend on the processing

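The MT-TE difference (3.33) passed under every alternative run, at 3.08 (batch 2 alone) to 3.55 (batch 1 alone). MT-CYB passed under all but those without a batch term (-0.39, adjusted p = 0.833) and in batch 2 alone (-0.30, adjusted p = 0.234); over libraries left out it was -0.46 to -0.34. The number of genes past the threshold, 12 (7 higher, 5 lower; 7 nuclear, 84 in single comparisons, 3 mtDNA mRNAs, no nuclear list member), depended more on the settings. Without a filter on low counts it was 92 (76 higher, 16 lower; 84 nuclear, 417 in single comparisons, 6 mtDNA mRNAs, 13 list members). With DESeq2 it was 14 (10 higher, 4 lower), with 134 in single comparisons. Without a batch term it was 5 (3 higher, 2 lower; 2 nuclear, 21 in single comparisons). In batch 1 alone it was 26 (20 higher, 6 lower; 23 nuclear, 190 in single comparisons) and in batch 2 alone 5 (3 higher, 2 lower; 2 nuclear, 21 in single comparisons). With the other treatments as 1 group it was 6 (4 higher, 2 lower; 4 nuclear, 1 mtDNA mRNA). With a replicate block it was 20 (13 higher, 7 lower, 15 nuclear, 144 in single comparisons). With this block EML2 (0.23, adjusted p = 0.0118, edgeR), INSM1 (0.61, 0.00714), NRTN (0.56, 0.0202) and MATK (0.37, 0.0223) passed. Residuals of same-numbered libraries correlated at -0.36 to 0.41, and 23 of 46 exceeded 0.1. These were 3 of 22 among replicates 1 and 2 and 20 of 24 among replicates 3 and 4. Same-numbered libraries thus shared variation mostly in batch 2, and its source was not tested. Without the ND5 treatment 1 list member, EGR1, passed. The share of higher genes was 58.3%, and 82.6% without the filter, 71.4% with DESeq2, 76.9% in batch 1 and 33.3% (2 of 6) without CYTB replicate 4. Leaving out a library gave 6 (without CYTB replicate 4) to 15 genes (without ND5 replicate 3), 2 to 10 higher, 3 to 5 lower, 2 to 3 mtDNA mRNAs, and 2 to 10 nuclear; leaving out a CYTB library gave 36 to 82 in single comparisons. RLE factors, nuclear library sizes, a stricter filter, the 42 silencing libraries, a length trend and library sizes before the filter gave 12 or 13. Differences that changed sign, none past the threshold, were MT-CO2 (-0.01 in batch 1), MT-ND4L (-0.15 in batch 1, -0.03 without CYTB replicate 4) and MT-ND3 (0.05 in batch 1, 0.00 without the COX3 treatment, 0.04 without the ND3 treatment, and 0.00 to 0.05 without CYTB replicate 2 or 3 or ATP8 replicate 2). Over all libraries left out MT-ND3 ranged from -0.08 to 0.05 and MT-ND4L from -0.03 to 0.13. The causes were not tested. Depth limits the genes with few reads, such as AP003392.5 with 1 read in each CYTB library.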
